A study of Mus musculus with 12 samples.

Results

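Meis1, Meis2, Meis3, Pbx2 and Pbx3 are 5 of the 25239 genes listed in the expression table of HT22 cells exposed to mesaconitine (MA). They were picked by gene name, with their MA-against-control expression and m6A values already known, so these values were selected on and are given below as a description without a test. All 5 carried an expression fold change, and 16167 genes in all had an expression p-value. In the m6A table, Meis1 and Meis2 had 1 peak each, so that 2 of the 2643 peaks, which lay on 2171 genes, belonged to these genes. Meis3, Pbx2 and Pbx3 had no peak listed.

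HT22 is an immortalised mouse hippocampal line, labelled wild type, and MA is an alkaloid of Aconitum plants. Cells of one group received 800 μM MA for 72 h and those of the control group received 0 μM for the same time. Each group gave 3 input libraries, which measure RNA abundance, and 3 libraries immunoprecipitated (IP) with an antibody against N6-methyladenosine (m6A), a methyl mark on adenosines of mRNA. The labels do not say whether the 3 libraries of a group came from separate cultures. Since the tables hold group summaries only, the value of a single library is given for no gene. As a model of neurons the line has limits that the data show. Of 10 neuronal marker genes, 5 (Map2, Nefm, Nefl, Snap25 and Dcx) were listed at 0 and the neuronal nuclear marker Rbfox3 had a mean normalised count of 1.15, although Tubb3 reached 473 and Eno2 534. The summed mean normalised count of the neuronal list was 1019, against 245589 for 6 fibroblast markers, nearly all of it from the collagen genes Col3a1 and Col1a1. Of these 6 fibroblast markers, all with a fold change, 3 passed the call rule used below as lower after MA. Of the 5 neuronal markers with a fold change, 2 did, beside 7.07% of all genes with a p-value. Eno2 and the fibroblast markers Pdgfra and Pdgfrb were not called. The 2 neuronal markers were Tubb3 and Syt1, the latter at a mean normalised count of only 6.22. Of 5 astrocyte and 5 microglia markers, 4 in each list had a fold change and 1 in each was also lower by that rule. Of 5 oligodendrocyte markers, 2 had a fold change and none was called. No marker of these lists was called higher. The part of these marker shifts in the values of the homeobox genes was not tested.

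MEIS and PBX proteins are homeodomain transcription factors of the TALE class, named for an extra loop of amino acids in the homeodomain. A MEIS protein binds a PBX protein, and the pair binds DNA together with Hox proteins and other partners. Binding to MEIS also helps to keep PBX in the nucleus. In the nervous system the family is known for patterning the hindbrain and for neuron production in the olfactory bulb, and elsewhere for limb and blood development, and several MEIS genes respond to retinoic acid. The m6A mark is written mainly at a 5-base motif called DRACH, which is A, G or T, then A or G, then A, then C, then A, C or T, and it can alter the splicing, translation and decay of a transcript.

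The sequences under the 2 peaks show where on these transcripts the antibody signal was called. They are written 5′ to 3′ on the transcribed strand with DRACH motifs in capitals, and positions are on mm10 (GRCm38). The Meis1 sequence is the whole peak, chr11:19016193-19016267 on the minus strand. The Meis2 sequence is a 30-base part of the peak chr2:116064830-116064879 on the minus strand, namely chr2:116064850-116064879. The stretch named Meis2 coding is the part of the Meis2 coding sequence most like the Meis1 peak, at chr2:116063254-116063328 on the minus strand, and is shown because no peak was listed there.
Meis1: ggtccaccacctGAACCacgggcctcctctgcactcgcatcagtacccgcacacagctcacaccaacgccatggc
Meis2: actttcttatccGGACTgggatattaaata
Meis2 coding: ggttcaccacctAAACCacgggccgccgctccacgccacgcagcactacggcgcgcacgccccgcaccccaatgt

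Each peak held 1 DRACH motif, which began at base 13 in both. The Meis1 motif was GAACC and the Meis2 motif was GGACT, the form of DRACH most often described for m6A. DRACH occurred in 74.4% of the 395 peaks of 75 bases and in 59.8% of the 908 peaks of 50 bases, the lengths of the Meis1 and the Meis2 peak. GGACT was less common, in 7.59% and 5.07% of the peaks of these lengths. A motif match describes the letters only. The peaks differed in base composition, with a GC content of 64% in Meis1 and 38% in Meis2 against a median of 49.8% over all peaks. The Meis2 coding stretch matched the Meis1 peak at 45 of 75 bases (60.0%) and held a DRACH motif, AAACC, at the same place. No 50-base stretch of either peak occurred in a transcript of another gene, whereas 13.3% of the 50-base stretches of the longest coding Meis1 transcript did.

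The peaks sat in different parts of their transcripts. The Meis1 peak lay in exon 2, inside the coding sequence, from 104 to 178 bases after the first coding base. All 4 coding Meis1 transcripts of GENCODE M21 contained it. The Meis2 peak lay in exon 1, in the 5′ untranslated region, from 66 to 17 bases before the first coding base. It was contained in 4 of 6 coding Meis2 transcripts, because the other 2 begin downstream of it. The window around an annotated RefSeq start of Meis2 also covers 40 of its 50 bases. The Meis2 peak therefore reports on the transcripts that begin upstream, while the expression value covers the whole gene.

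**Figure D1:**
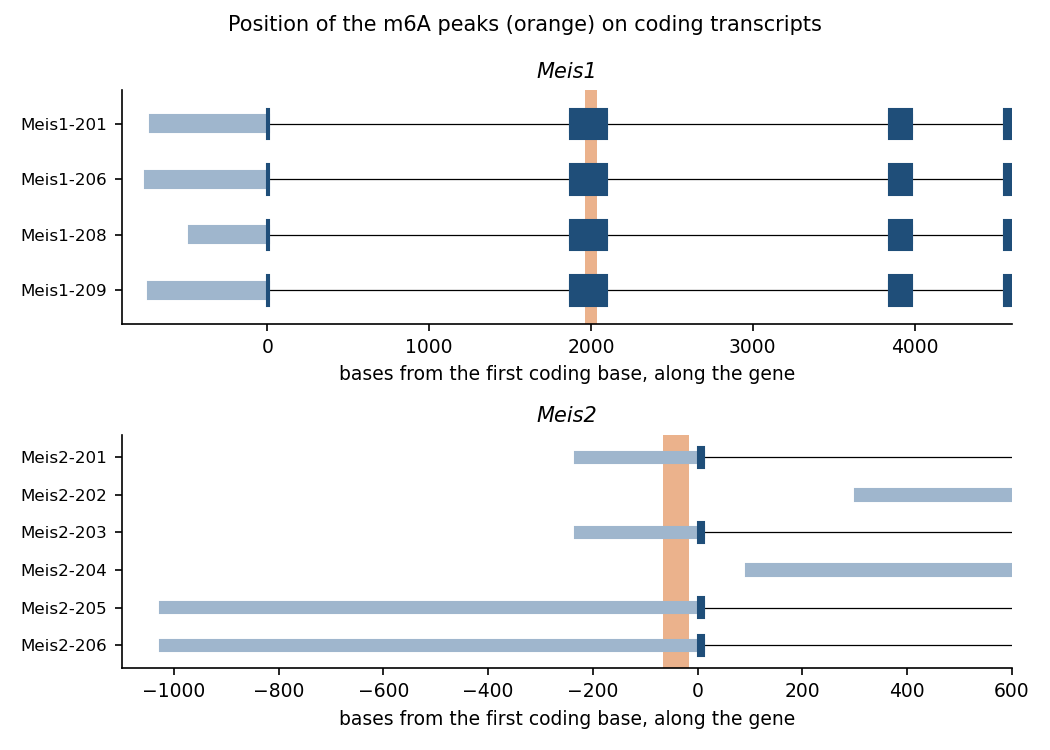
The m6A peaks of Meis1 and Meis2 are drawn as orange bands over the coding transcripts of each gene, with exons as light boxes, coding sequence as dark boxes and introns as lines. The x axis gives the distance in bases from the first coding base along the gene, introns included, so the Meis1 peak falls in exon 2 of all 4 transcripts and the Meis2 peak in the untranslated part of exon 1 in 4 of 6.

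To ask how MA changed the abundance of these genes, the log2 fold changes, taken to be those of the input libraries, were read as MA over control. Their deposited sign was reversed, as laid down when the genes were picked. The IP reads of all peaks followed the reversed change. Spearman's rho was 0.28 over 2470 peaks and 0.59 over the 166 on genes with an expression p under 0.0001. These values are given as a description over peaks that share libraries. IP reads reflect m6A as well as abundance, so they are a weak check of the sign. The input reads did not separate the directions, with rho 0.01 and 0.03. The call rule for a gene was a change of over 1.2-fold with a p under 0.05 before adjustment. By that rule 2 of 5 genes, Meis1 and Meis2, were lower after MA, beside 7.07% of the 16167 genes with a p-value. None of the 5 was called higher, beside 6.8% of all genes. As the genes were selected on this contrast, nothing is read from these shares.

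Meis2, a regulator of neuron production and of limb and heart development, had the largest change of the 5. Its base mean, the mean normalised count over the libraries of the comparison, was 912, and its log2 fold change was -1.05 ± 0.10 (SE), with a 95% interval from -1.26 to -0.85. This corresponds to 48.2% of the control level. If the base mean averages equal numbers of libraries per group, the control level was about 1231 and the MA level about 593. In the ranking of the changes of all 16167 genes with a p-value, from lowest to highest, Meis2 stood at percentile 9.99. This ranking includes genes with few counts, and 11000 of the genes had a base mean of at least 50. The median SE was 0.17 over all genes and 0.11 over those 11000, among which the rank was not computed. Meis2 passed the call also with an adjusted p under 0.05.

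Meis1, which maintains blood stem cells and is known as a leukaemia cofactor, was lower by a smaller amount. Its base mean was 452 and its log2 fold change was -0.38 ± 0.15 (SE), with a 95% interval from -0.68 to -0.08. The level after MA was 76.7% of control, or about 393 against 512. Meis1 did not pass with an adjusted p. The interval of Meis1 lay wholly above that of Meis2, and both lay below 0. In bulk RNA a lower value can reflect fewer cells of a kind or less RNA per cell, which cannot be told apart here.

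Meis3, best known for hindbrain patterning, stayed near its control level in these values. Its base mean was 563 and its log2 fold change was -0.02 ± 0.20 (SE). The 95% interval ran from -0.41 to 0.36, and so still holds a change as large as that of Meis1. The derived levels were about 568 in control and 559 after MA.

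The PBX genes encode the partners with which MEIS proteins pair. Pbx2, expressed in most tissues, had a base mean of 790 and a log2 fold change of 0.15 ± 0.10 (SE, 95% interval -0.04 to 0.34). Pbx3, a partner of HOXA9 in leukaemia, had a base mean of 1196 and a log2 fold change of 0.10 ± 0.09 (SE, 95% interval -0.06 to 0.27). The derived levels were about 750 in control and 831 after MA for Pbx2, and about 1152 and 1239 for Pbx3. Both intervals include 0, and both exclude the changes of Meis1 and Meis2. Their upper ends leave room for a rise of less than 1.5-fold only. The median change of the 5 genes was -0.02, beside a median of -0.01 over all genes with a p-value.

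**Figure D2:**
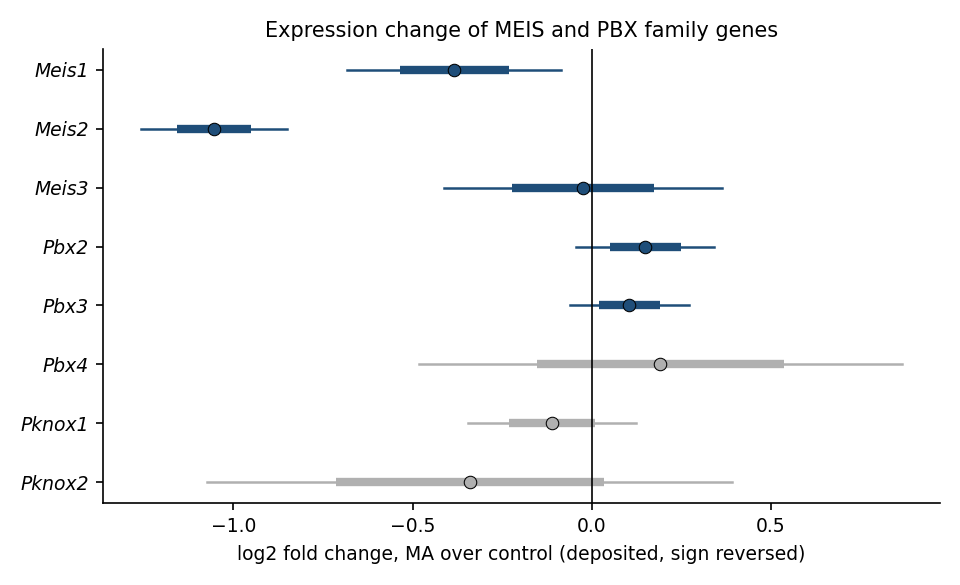
Log2 fold changes of MA over control are shown for the 5 genes (blue) and for other MEIS and PBX relatives (grey), with thick bars for 1 standard error and thin lines for the 95% interval. The intervals of Meis1 and Meis2 lie below 0, and those of Meis3, Pbx2, Pbx3 and all grey genes include 0.

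**Figure D3:**
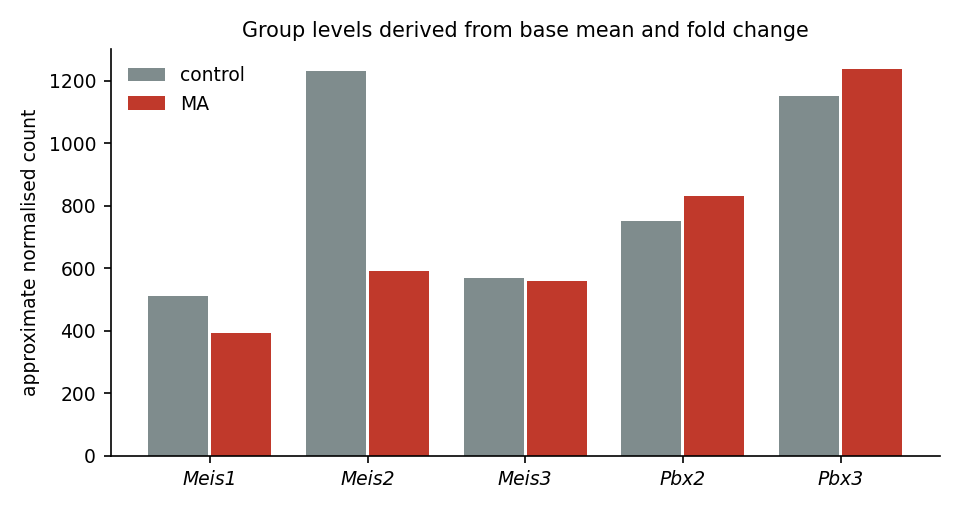
Approximate normalised counts of the 5 genes in control (grey) and MA (red), derived from the base mean and the fold change and therefore shown without error bars. The Meis2 bar goes from about 1231 to 593 and the Pbx3 bar from about 1152 to 1239.

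Levels of different genes were compared as base mean per kilobase of exon. On this scale the order was Pbx2 at 217, Pbx3 at 196, Meis3 at 178, Meis2 at 75.7 and Meis1 at 43.0. On this scale the 2 PBX genes and Meis3 stood above Meis1 and Meis2. The scale divides by the union of all annotated exons, so genes with many exon bases that the cells do not use can come out low. For Meis2 the union was 12043 bases, against 3718 in its longest coding transcript, and for Pbx2 3640 against 3068. How far Meis2 stood below the others therefore depends on the length used. The base mean also averages over both groups, and Meis2 was higher in control. No spread over libraries could be given for these levels, so neighbours such as Pbx2 and Pbx3 cannot be ordered beyond their error.

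Other relatives of these genes were measured too. Pknox1 (Prep1), which competes with MEIS proteins for PBX, had a log2 fold change of -0.11 ± 0.12 (SE). Pbxip1, which binds PBX and hinders its access to DNA, had one of -0.08 ± 0.08 (SE). Pbx4 and Pknox2 were low, at 36.3 and 8.10 per kilobase, and neither was called.

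Among 12 other TALE genes, 2 were called higher and none lower. These were Irx2, an Iroquois gene of neural and limb patterning, with a log2 fold change of 0.38 ± 0.10 (SE), and Tgif1, a repressor of TGF-beta and retinoic acid signalling, with 0.27 ± 0.13 (SE). Irx2 alone of these passed with an adjusted p. The median over the 10 with a change was 0.20, and Irx4 and Irx6 were listed at 0. Among the 39 Hox genes, the DNA-binding partners of MEIS and PBX, 25 had a change and 14 were listed at 0. The highest base means were 787 for Hoxd8 and 755 for Hoxa7. Only Hoxb8 was called, higher by a log2 fold change of 5.55 ± 1.89 (SE), at a base mean of 4.14, which is near the bottom of the scale. The 16 Hox genes with a base mean of at least 50 had a median change of 0.07. Over all genes with a p-value, 6.8% were called higher and 7.07% lower. A few calls in lists this small, here or below, are not read as a result.

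Of 9 PBX partners, 7 had a change, with a median of -0.08, and 1 of these was called lower and none higher. This was Hdac1, which encodes a histone deacetylase of corepressor complexes, with a log2 fold change of -0.41 ± 0.10 (SE). En1, an Engrailed gene whose protein binds DNA with PBX, had a base mean of 949 and a change of -0.03 ± 0.10. Of 17 genes of retinoic acid synthesis, transport and response, 11 had a change, and 2 were called lower and none higher. Aldh1a1, which makes retinoic acid from retinal, changed by -1.82 ± 0.31 (log2 and SE). Dhrs3, a retinal reductase, changed by -0.73 ± 0.37 and did not pass with an adjusted p. The median of the 11 was -0.16. The other 9 genes of this list with a change, retinoid-handling genes and receptors alike, were not called. Among them were the receptor genes Rara, at -0.26 ± 0.15, and Rarg, at -0.08 ± 0.11.

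Of 10 genes described as regulated by MEIS or PBX, 7 had a change and 1 was called, Ccnd1, the cyclin D1 gene, lower by a log2 fold change of -0.54 ± 0.09 (SE). The cell cycle inhibitors Cdkn1a and Cdkn1b, at 0.19 ± 0.14 and 0.14 ± 0.07, were not. The median of the 7 was -0.11, and Pax6, Cdkn2a and Flt3 were listed at 0. Of the other TALE and Hox genes with a base mean of at least 50, the 3 with a change nearest to the members' median of -0.02 were Hoxc5 (-0.05), Hoxd9 (0.00) and Mkx (0.01). This likeness rests on 1 contrast. The median is the value of Meis3, so the nearness is to Meis3 and not to Meis1 (-0.38) or Meis2 (-1.05).

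For the m6A marks the design asks whether IP reads per input read differed between MA and control. Reads of the 3 libraries per group were pooled in the table, so the intervals below cover counting error only. The call rule for a peak was the same as for a gene. The Meis1 peak was called higher after MA, beside 25.2% of the 2642 peaks with a value, and the Meis2 peak lower, beside 5.94%. Neither call held with an adjusted p under 0.05. Again the selection used this contrast, and nothing is read from the shares.

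The Meis1 peak held 39 reads in control input, 31 in control IP, 10 in MA input and 49 in MA IP. The group with few reads was MA input, whose exact Poisson interval did not overlap that of any other group. IP reads per input read were 0.795 in control (95% interval 0.480 to 1.31) and 4.90 after MA (2.45 to 10.8). The deposited log2 change, scaled by the authors' software, was 1.39, which stood at percentile 91.5 of all peaks. On the deposited log2 scale, IP over input stood at 0.05 in control and at 2.15 after MA. These deposited ratios differ by 2.10, so the deposited change is smaller than the difference of the deposited ratios. Other treatments of the pooled reads gave log2 changes from 1.66 to 2.56, the latter without scaling, and the direction was the same in each.

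The Meis2 peak held 26 reads in control input, 58 in control IP, 48 in MA input and 57 in MA IP. Here control input was the lowest group, and in raw reads the other 3 were close to each other. Its exact Poisson interval, 17.0 to 38.1, overlapped that of MA input, 35.4 to 63.6, and lay below those of both IP groups. IP reads per input read were 2.23 in control (95% interval 1.38 to 3.69) and 1.19 after MA (0.795 to 1.78). The deposited log2 change was -0.88, at percentile 4.24 of all peaks. The deposited log2 ratio was 1.53 in control and 0.12 after MA, a difference of -1.42 that again does not equal the deposited change. Scaling the pooled reads by their totals gave -1.75, and centring on the median peak gave -1.80, so the size of the change in Meis2 depends on the scaling. The 2 peaks thus moved in opposite directions, while the expression of both genes was lower.

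**Figure D4:**
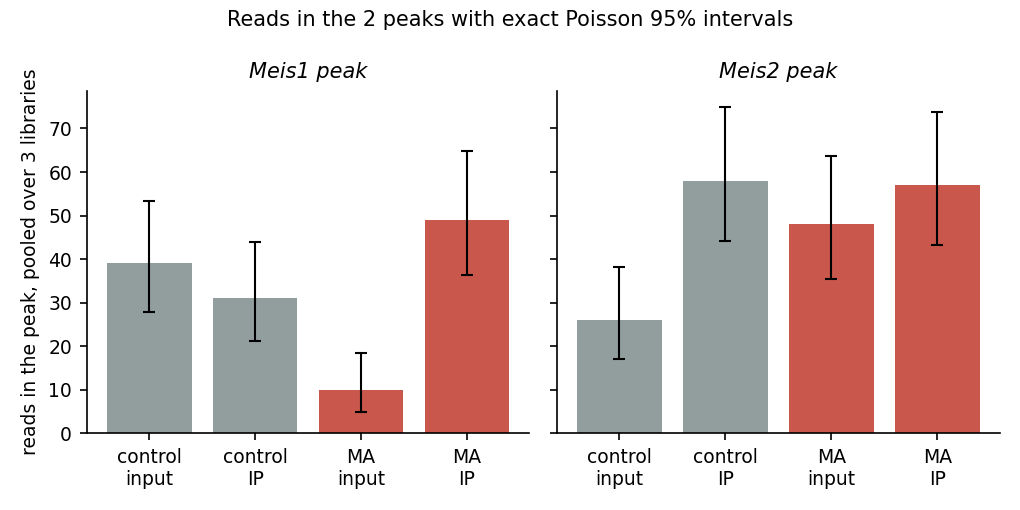
Reads in the Meis1 and Meis2 peaks are shown for control (grey) and MA (red), pooled over 3 libraries per bar, with exact Poisson 95% intervals that cover counting error only. The lowest bars are MA input in Meis1, at 10 reads, and control input in Meis2, at 26, and the interval of the latter overlaps that of MA input. The reads are raw and not scaled to the unequal totals of the groups.

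In both peaks the input reads moved more than the IP reads. Input reads after MA were 0.256 of control in the Meis1 peak (95% interval 0.114 to 0.523) and 1.85 times control in the Meis2 peak (1.12 to 3.10). The IP reads were 1.58 times control in Meis1 (0.988 to 2.56) and 0.983 in Meis2 (0.670 to 1.44), and both of these intervals include no change. Among all peaks the input change stood at percentile 1.48 for Meis1 and 98.9 for Meis2, near either end of the range, and the IP change at 63.1 and 19.8. The totals over all peaks differed as well, with 288659 reads in control input, 214778 in MA input, 267002 in control IP and 359889 in MA IP. After subtraction of the median peak, whose log2 change was -0.47 in input and 0.47 in IP, the input change was -1.49 in Meis1 and 1.36 in Meis2, and the IP change 0.19 and -0.49.

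**Figure D5:**
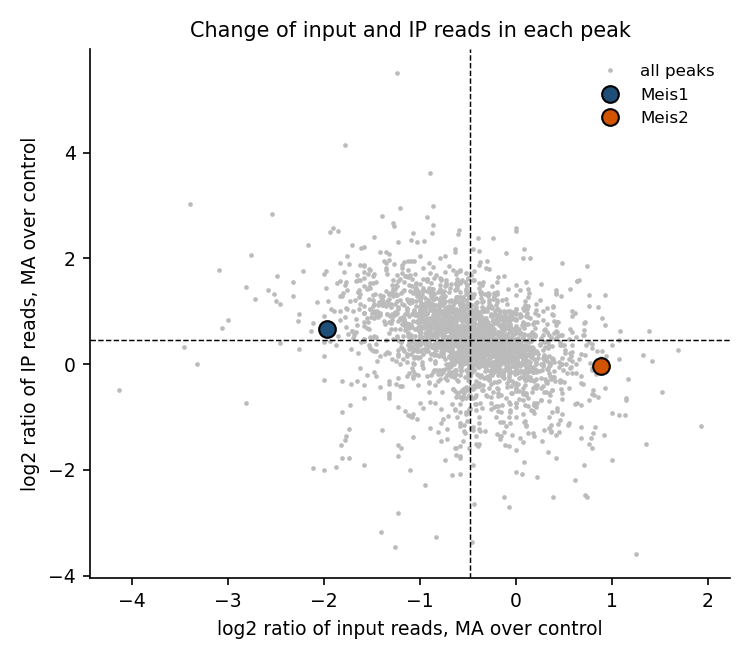
Each grey point is a peak, placed by the log2 ratio of MA to control reads in input (x axis) and in IP (y axis), with dashed lines at the medians of -0.47 and 0.47. The Meis1 and Meis2 peaks lie near opposite ends of the input axis and within the bulk of the peaks on the IP axis.

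The input reads of a peak can be set beside the expression of the whole gene if both come from the input libraries. For expression this was assumed and not checked. As given above, the expression changes followed the IP reads more closely than the input reads. In Meis1 the input reads and the expression were both lower after MA, with 0.256 of the control reads in the peak against 76.7% of control over the gene. In Meis2 they went opposite ways, with 1.85 times the control reads in the 5′ peak and 48.2% of control over the gene. Among 49 peaks on genes whose expression was lower by over 1 on the log2 scale, 22 had input reads above the median peak. Of the 49, 5 had input reads higher by over 1 after subtraction of the median peak, and Meis2 was 1 of these 5. Over all 2470 peaks on genes with an expression p-value, the input reads of a peak hardly followed the expression of its gene (rho 0.01, as given above). The cause of the difference was not tested. Over all genes with both values, 16 had lower expression and a higher peak, Meis1 among them, and 13 had lower expression and a lower peak, Meis2 among them. Of the peaks on genes with lower expression, 96 were not called, 16 were higher and 14 were lower. Over all peaks, 25.2% were called higher and 5.94% lower, and nothing is read from these counts.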

How the data were processed

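From HT22 cells, 12 libraries were sequenced, 3 of input RNA and 3 of m6A-immunoprecipitated RNA per group, with a stranded kit that carries molecular identifiers. The authors used fastp for trimming, HISAT2 for alignment to mm10, StringTie and DESeq2 for expression, and exomePeak2 for peaks. Tool versions are not given in the sources used here. The deposited base mean is a signal, namely the mean of normalised counts. Beside it the authors gave DESeq2's log2 fold change, its standard error and p-value per gene, and that contrast was taken as MA input against control input. For peaks, the authors deposited counts of reads pooled over the libraries of a group, log2 ratios of IP to input and p-values. No column of a single library was present, so neither a count model nor a spread over libraries could be computed, and the authors' own comparison columns stand in for it. The depth behind a peak is its read count, with medians of 57 reads in control input, 57 in control IP, 40 in MA input and 81 in MA IP.

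Here the sign of the expression change was reversed, 95% intervals were set from the standard error by the normal distribution, and ratios of pooled reads received exact binomial intervals, computed in Python 3.11.15 with scipy 1.17.1, pandas 2.3.3 and numpy 2.4.6 and drawn with matplotlib 3.10.9. Scripts were tested on simulated data. Peaks were placed on GENCODE M21 transcripts, and sequences were read from the GRCm38 genome with pysam 0.24.0. The RefSeq promoter table matched 4 of the 5 genes (Meis1, Meis2, Meis3 and Pbx2). Named genes were the 5 members, the highest and lowest called genes of each related list, Pknox1 and Pbxip1, and the 3 genes nearest to the members' median. Some genes of the related lists are not reported here and were left out of the counts and medians of those lists. En1, Hoxd8, Hoxa7, Pbx4, Pknox2, Rara, Rarg, Cdkn1a and Cdkn1b were added after their values were seen. The members, lists and call rule were chosen with earlier results of these data known. Alternatives were an adjusted p, other fold thresholds, centring, scaling by totals and other pseudocounts.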

Additional observations from a re-analysis of the deposited data

How the results depend on the processing

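The number of genes called in expression, 2 of 5, was 1 with an adjusted p under 0.05 and 1 with a threshold of over 1.5-fold, in both cases Meis2, and 2 with no fold threshold. The number of peaks called in m6A, 2 by the unadjusted p of exomePeak2, was 0 with its adjusted p. Centring the expression changes on the median of all genes moved none of the 5 values beyond its error. Over the deposited value and 5 alternatives, the log2 m6A change ranged from 1.39 to 2.56 in the Meis1 peak and from -1.80 to -0.80 in the Meis2 peak. The lowest value for Meis1, 1.39, was the deposited one. For Meis2 the change was -1.75 after scaling by the reads in all peaks and -1.80, the lowest value, after centring on the median peak, against the deposited -0.88. The alternatives applied to the Meis1 and Meis2 peaks reversed neither direction. The alternative that subtracts the deposited ratios was chosen after seeing the data. No paired analysis was possible because the tables hold no value of a single library, and for the same reason no replicate could be left out. With 129 reads in the Meis1 peak and 189 in the Meis2 peak, counting error is wide, and the spread between libraries is unknown.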
